A study of Mus musculus with 6 samples.

Results

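Keratins of basal and stratified epithelia, with the transcription factor Trp63, were followed through RNA-seq of the embryonic mouse cranial base. The set held 8 genes of the 43496 entries in the deposited table: the type II keratins Krt5, Krt6a and Krt4, the type I keratins Krt15, Krt14, Krt17 and Krt13, and Trp63. They were picked by name, with earlier results of the mutant against control contrast in view, so their differences between the genotypes are given as description and without a test. Each symbol matched 1 entry, and all 8 passed the filter of a mean of at least 1 FPKM over the 6 libraries. FPKM is the number of fragments per kilobase of transcript, scaled to the size of the library, so levels of different genes can be set side by side.

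The samples were cranial bases, the cartilage plate below the brain, dissected on embryonic day E15.5 from 3 Memo1 mutant embryos and 3 control embryos, and each embryo gave 1 library. The mutant allele of Memo1 was made with ENU, a chemical mutagen that mostly changes single bases. The genotype of the controls beyond the word control, and whether the mutants had 1 or both copies altered, are not stated in the labels. Both groups were of the strain C57BL/6J. The dissected piece was whole tissue, so a lower level can come from fewer epithelial cells or from less RNA per cell, and these cannot be told apart here.

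Keratins build the intermediate filaments of epithelial cells, and each filament needs a type I and a type II chain. Basal cells of stratified epithelia pair Krt5 with Krt14 and also make Krt15, and Trp63 is the factor on which the basal cell state depends. Krt4 pairs with Krt13 in the upper layers of internal stratified epithelia such as those of the mouth and oesophagus. Krt6a and Krt17 are keratins of appendages and of activated or dividing epithelium.

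Memo1 mRNA itself was 25.4, 20.1 and 22.2 FPKM in mutants 1, 2 and 3, against 19.1, 23.1 and 21.9 FPKM in controls 1, 2 and 3. The groups overlapped, and a base change need not alter an mRNA level, so this does not check the labels. Mutant 1 stood apart as a library. It listed 3447 of the 15710 genes tested at 0, and the correlation of its log2 values with any other library was 0.748 to 0.762, against 0.968 to 0.981 among the other 5. Of 6406 genes with a control mean above 15 FPKM, 316 (4.93%) were listed at 0 in mutant 1. Its depth could not be read from the table, and that of the other libraries was 80.2% to 152% of control 1. The members' values are therefore also given without mutant 1. The sample titles open with a code, called the title word here, that the labels do not explain. By it, mutant 1 shares M3150 with control 1, mutant 3 shares M3159 with controls 2 and 3, and mutant 2 has M3149 alone.

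In mutant libraries Krt15 was the highest of the 8 genes, at 119.5 to 174.7 FPKM, and Krt17, Krt14 and then Krt5 followed it. There Krt17 and Krt14 overlapped, and so did Krt6a, Krt13, Krt4 and Trp63 in this order of their medians, each with the next. In controls Krt15 was also the highest, at 271.1 to 295.3 FPKM, above 98.5% of the genes tested. Krt5 came next at 83.8 to 95.0 FPKM, then Krt14 at 57.6 to 59.1 FPKM and Krt17 at 50.2 to 55.55 FPKM. Krt13 overlapped with both Krt14 and Krt17, at 42.4 to 64.9 FPKM. Krt4 at 19.0 to 26.1 FPKM and Krt6a at 18.9 to 24.0 FPKM overlapped with each other, and Trp63 was lowest at 6.05 to 7.085 FPKM. By medians Krt5 thus stood below Krt14 and Krt17 in mutants and above both in controls.

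**Figure D1:**
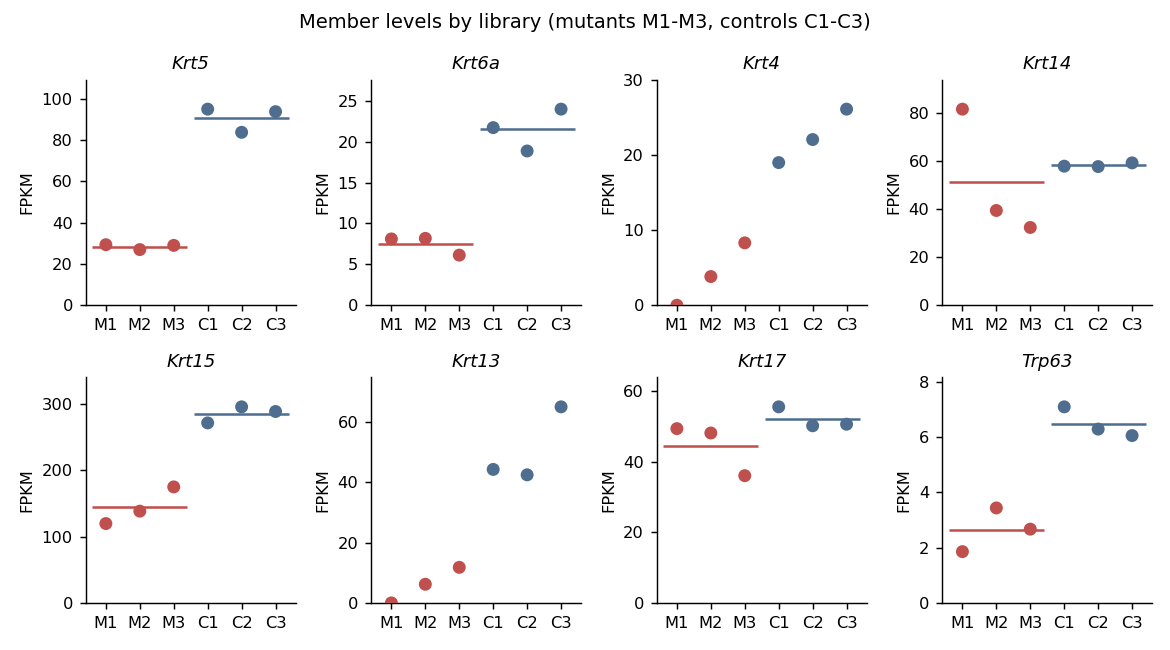
FPKM of each of the 8 genes (vertical axes, each from 0) in the 3 mutant libraries (M1 to M3, red) and the 3 control libraries (C1 to C3, blue). Lines are group means and are left out for Krt4 and Krt13, which are listed at 0 in mutant 1. Krt5 lies at 27.0 to 29.3 FPKM in mutants and 83.8 to 95.0 FPKM in controls, while Krt14 is split among the mutants.

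Among the type II chains, Krt5 was 29.3, 27.0 and 29.0 FPKM in mutants 1, 2 and 3, against 95.0, 83.8 and 93.8 FPKM in controls 1, 2 and 3. All 3 mutants lay close together, and the highest of them was far below the lowest control. The mutant mean of Krt5 was 31.3% of the control mean, and 30.8% with mutants 2 and 3 alone (log2 change -1.64 with all 6 libraries, SE 0.10). The coefficient of variation of Krt5 among controls was 6.79%, near the median of 6.75% over tested genes with at least 20 FPKM in controls. Krt6a was 8.11, 8.18 and 6.13 FPKM in mutants, against 21.7, 18.9 and 24.0 FPKM in controls. It was thus lower in every mutant, at 34.7% of the control mean, and 33.2% without mutant 1 (log2 change -1.41, SE 0.175).

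Krt4 was listed at 0 in mutant 1 and was 3.82 and 8.305 FPKM in mutants 2 and 3, against 19.0, 22.1 and 26.1 FPKM in the controls. Every mutant lay below every control, but the mutants differed among themselves by more than the controls did. The mean of mutants 2 and 3 was 27.1% of the control mean. Krt6a is the member whose reads are hardest to assign: 45.7% of the 50-base words of its GENCODE transcripts also occur in transcripts of other genes, and 40.2% in Krt6b, its near copy. Krt6b itself was 0, 0.149 and 0.167 FPKM in mutants and 0.665, 0.237 and 0.746 FPKM in controls, far below Krt6a. Of the words of Krt5, 8.52% occur elsewhere, and of those of Krt4 none.

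The type I chains differed among themselves. Krt15 was 119.5, 138.2 and 174.7 FPKM in mutants 1, 2 and 3, against 271.1, 295.3 and 288.3 FPKM in controls 1, 2 and 3. Its groups were well apart, with a mutant mean at 50.6% of the control mean, and 54.9% without mutant 1 (log2 change -0.995, SE 0.15). Krt13, the partner of Krt4, was listed at 0 in mutant 1 and was 6.175 and 11.8 FPKM in mutants 2 and 3, against 44.2, 42.4 and 64.9 FPKM in the controls. The mean of mutants 2 and 3 was 17.8% of the control mean, the lowest share of the 8 genes over these 5 libraries. Krt4 and Krt13 had the same order of the 3 mutants, with mutant 1 at 0 and mutant 3 highest, and both were highest in control 3 among the controls.

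Krt14, the usual partner of Krt5, varied most among the mutants on the log2(FPKM + 1) scale, of the members with no library at 0. In FPKM its SD among the mutants was 26.57, and that of the higher Krt15 was 28.09. It was 81.45, 39.35 and 32.3 FPKM in mutants 1, 2 and 3, against 57.8, 57.6 and 59.1 FPKM in controls 1, 2 and 3. Mutant 1 lay above all controls and mutants 2 and 3 below them, so the groups overlapped. The mutant mean was 87.7% of the control mean with all 6 libraries and 61.6% without mutant 1 (log2 change -0.30, SE 0.34, and -0.69, SE 0.099 without mutant 1). Within the title word M3150 the mutant was higher by 0.49 on the log2(FPKM + 1) scale, and within M3159 the log2 difference was -0.83. The 3 controls had a coefficient of variation of 1.45%, the smallest of the 8 genes. Of the 50-base words of Krt14, 13.9% occur in other genes, most often in Krt16 (11.0%), which was at most 0.279 FPKM in mutants and 1.13 FPKM in controls.

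Krt17 was 49.4, 48.1 and 36.05 FPKM in mutants 1, 2 and 3, against 55.55, 50.2 and 50.6 FPKM in the controls. Every mutant lay below every control, but mutant 1 only by the gap between 49.4 and 50.2 FPKM. The mutant mean was 85.4% of the control mean (log2 change -0.235, SE 0.151), and 80.8% without mutant 1. Krt17 rests on mutant 3: without that library its log2 change was -0.093. The log2 change of Krt14 was -0.0367 without mutant 3 and -0.69 without mutant 1, the mutant that lay above all controls. Trp63, the transcription factor, was 1.85, 3.43 and 2.665 FPKM in mutants, against 7.085, 6.28 and 6.05 FPKM in controls. It was lower in every mutant, at 41.0% of the control mean, and at 47.1% without mutant 1 (log2 change -1.05, SE 0.26). The + 1 in the scale shrinks the log2 change of a gene this low. None of the 50-base words of Trp63 occur in another gene's transcripts.

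With type I and type II chains summed, the type II members came to 37.4, 39.0 and 43.4 FPKM in mutants 1, 2 and 3, against 136, 125 and 144 FPKM in controls 1, 2 and 3. The type I members summed to 250, 232 and 255 FPKM in mutants, against 429, 446 and 463 FPKM in controls. Neither sum overlapped between the groups. The log2 ratio of mutant to control means was -1.75 for the type II sum and -0.86 for the type I sum, and -1.71 and -0.87 without mutant 1. The ratio of type II to type I FPKM was 0.163 ± 0.011 in mutants and 0.303 ± 0.0199 in controls (SD, n = 3 each). In each of the 6 libraries the type I members outweighed the type II members, and the imbalance was larger in the mutants.

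**Figure D2:**
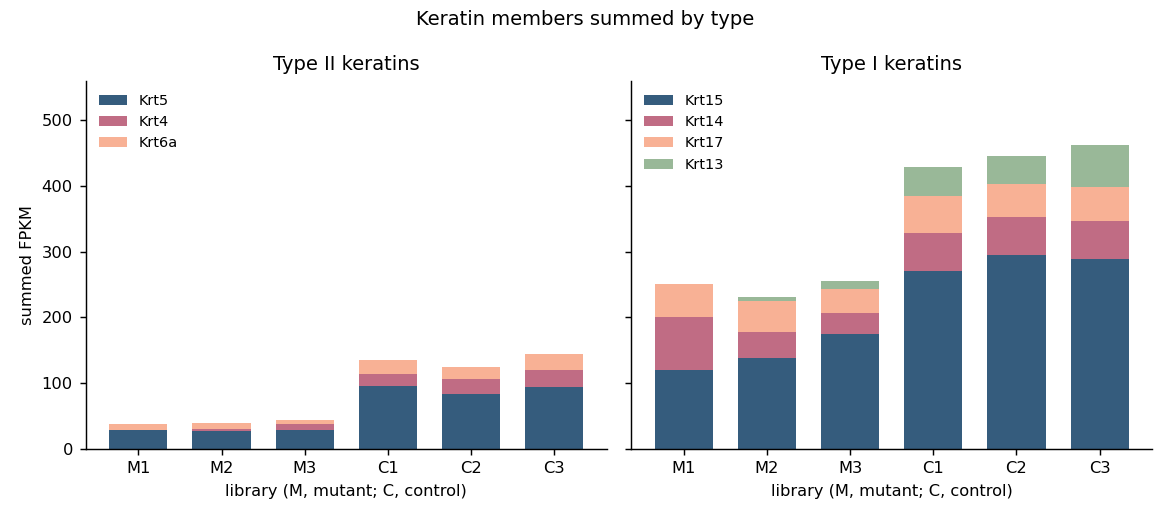
Stacked FPKM of the type II members (left) and type I members (right) in the mutant libraries (M1 to M3) and the control libraries (C1 to C3), on 1 common axis from 0. Type II sums are 37.4 to 43.4 FPKM in mutants and 125 to 144 FPKM in controls, and the Krt14 block of mutant 1 is the tallest of the 6.

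Within each type the shares of single keratins were as follows. Krt5 made up 66.8% to 78.3% of the type II sum in mutants and 65.2% to 70.0% in controls. Krt15 made up 47.7%, 59.6% and 68.6% of the type I sum in mutants 1, 2 and 3, and 62.3% to 66.3% in controls, so mutants 1 and 2 lay below and mutant 3 above the control range. Krt14 took 32.5% of the type I sum in mutant 1, 17.0% in mutant 2 and 12.7% in mutant 3, against 12.8% to 13.5% in controls. Within libraries the ratio of Krt5 to Krt14 was 0.36, 0.685 and 0.897 in mutants and 1.65, 1.45 and 1.59 in controls. The ratio of Krt15 to Krt5 was 4.08, 5.13 and 6.03 in mutants and 2.85, 3.52 and 3.07 in controls. Neither ratio overlapped between the groups. Ratios within a library do not depend on how libraries are scaled.

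**Figure D3:**
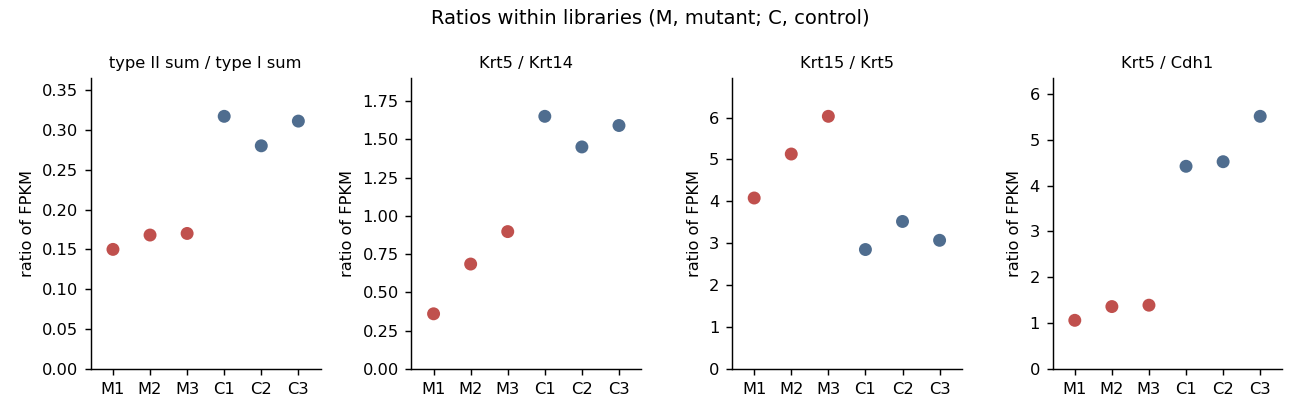
Ratios of FPKM within each library (vertical axes, each from 0) for the mutants (M1 to M3, red) and the controls (C1 to C3, blue). The type II to type I ratio, Krt5 to Krt14 and Krt5 to Cdh1 are lower in each mutant than in each control, and Krt15 to Krt5 is higher.

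Of 51 keratin genes in the table, 11 had a control mean of at least 10 FPKM, and 7 of these were the keratin members. The members made up 64.8%, 64.3% and 67.9% of all keratin FPKM in mutants 1, 2 and 3, against 68.6%, 70.7% and 70.0% in controls. The simple epithelial keratins Krt7, Krt8, Krt18, Krt19 and Krt20, found in single-layered epithelia, made up 29.6% to 32.9% in mutants and 27.6% to 29.3% in controls. The sum of all keratins was 421 to 444 FPKM in mutants and 806 to 868 FPKM in controls. Set against Cdh1, the adhesion molecule of epithelial cells in general, Krt5 was 1.06, 1.36 and 1.39 times its level in mutants and 4.42, 4.52 and 5.51 times its level in controls. Set against Epcam, another general epithelial adhesion molecule, Krt5 was 1.05 to 1.81 times its level in mutants and 3.62 to 7.11 times in controls. Beside Krt19, Krt5 was 0.608, 0.546 and 0.61 times its level in mutants and 0.965, 0.9 and 0.947 times in controls. Cdh1 and Epcam were chosen after their values were seen, and their log2 changes were 0.241 and 0.211. The 15 tested genes of simple epithelia and of epithelia in general, with both among them, had a median of -0.325. Cdh1 and Epcam thus do not stand for that list. Set against Trp63, Krt5 was 11.5 ± 4.01 times its level in mutants and 14.1 ± 1.24 times in controls (SD, n = 3 each), and the groups overlapped.

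Every mutant lay below every control in 7 of the 8 genes, all but Krt14. The same held for 1871 of the 15710 genes tested (11.9%), and 1411 (8.98%) had every mutant above every control. Without mutant 1 it held for all 8 genes, and for 3154 of the genes tested (20.1%). The members were chosen with this contrast in view, so nothing is read from these counts, and no pass count is given for the 8 genes. The median log2 change was -1.23 over the 8 genes, -1.02 over the 6 that no library lists at 0, and -0.046 over all genes tested. Without mutant 1 these medians were -1.18, -0.88 and -0.015.

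Most of the 8 genes were lower in every mutant than in every control, Krt14 only without mutant 1. The RefSeq promoters of the members at hand are shown as their sequence context, each from 250 bases before to 50 after the start. Of the 8 genes, 3 had an entry (Krt5, Krt14 and Krt13, the last with 2 starts), and the build GRCm38.p6 is not that of the expression values. Both strands were searched for TATAAA (the TATA box), TGANTCA (AP-1), GCCNNNGGC (AP-2) and the p53 family half-site consensus, to which Trp63 as a p53 relative binds. Matches stand in capitals.
Krt5 promoter, GRCm38.p6 chr15:101712856-101713155, minus strand: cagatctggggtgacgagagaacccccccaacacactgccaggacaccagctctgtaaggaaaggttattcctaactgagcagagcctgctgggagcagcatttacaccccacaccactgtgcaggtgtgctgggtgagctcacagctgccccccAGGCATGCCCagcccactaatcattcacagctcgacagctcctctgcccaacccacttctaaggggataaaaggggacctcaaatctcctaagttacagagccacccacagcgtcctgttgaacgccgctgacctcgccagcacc
Krt14 promoter, GRCm38.p6 chr11:100205981-100206280, minus strand: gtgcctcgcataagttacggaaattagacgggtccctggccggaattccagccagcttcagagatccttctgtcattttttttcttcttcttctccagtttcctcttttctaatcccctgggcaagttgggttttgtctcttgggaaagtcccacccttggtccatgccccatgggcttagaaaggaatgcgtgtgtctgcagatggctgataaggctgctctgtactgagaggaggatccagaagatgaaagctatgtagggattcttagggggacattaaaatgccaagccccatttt
Krt13 first start, promoter, GRCm38.p6 chr11:100121517-100121816, minus strand: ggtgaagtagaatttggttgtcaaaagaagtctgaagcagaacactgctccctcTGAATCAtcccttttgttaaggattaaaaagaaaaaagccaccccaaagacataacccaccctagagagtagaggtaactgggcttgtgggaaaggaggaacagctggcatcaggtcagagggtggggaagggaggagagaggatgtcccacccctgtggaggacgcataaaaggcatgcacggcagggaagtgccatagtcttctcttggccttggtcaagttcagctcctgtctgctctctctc
Krt13 second start, promoter, GRCm38.p6 chr11:100120528-100120827, minus strand: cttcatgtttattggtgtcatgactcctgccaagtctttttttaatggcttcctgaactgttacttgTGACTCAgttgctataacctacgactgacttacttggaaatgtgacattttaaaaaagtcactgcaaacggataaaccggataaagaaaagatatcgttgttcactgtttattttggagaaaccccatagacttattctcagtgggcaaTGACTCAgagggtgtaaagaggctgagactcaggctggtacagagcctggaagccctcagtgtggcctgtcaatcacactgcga

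The Krt5 window held 1 match to the p53 family half-site, which begins 95 bases before the start, and 8.36% of 32851 promoter windows of this length held one. The Krt13 windows held AP-1 matches that begin 196 bases before the first start, and 183 and 34 bases before the second, where 7.81% of all windows held one. The Krt14 window held no match to any of the 4 motifs. It surrounds the 1 start at hand for this gene, and whether Krt14 is read from that start here was not checked. None of the 4 windows held the TATA box letters or the AP-2 letters, which 13.6% and 16.6% of all windows held. The search took exact letters only. ATAAAAG, a near variant of TATAAA, stands in the Krt5 window and in the first Krt13 window and was not counted. GC content was 57.7% for Krt5, 48.3% for Krt14, and 50.3% and 42.7% for the Krt13 starts, beside a median of 52.7% over all windows. A match of letters is not a binding site, and no binding was measured here.

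Genes of the same epithelia outside the set were tested with limma and Benjamini-Hochberg adjustment over all genes. The lists, too, were chosen with earlier results of these data known. Their counts and adjusted p-values are thus a description and no independent evidence. With all 6 libraries at equal weights, 0 of 15710 genes (0%) passed an adjusted p of 0.05 in either direction, and 805 had an unadjusted p under 0.05. Array weights, by which limma gives a library far from its group less weight, were 0.0329 for mutant 1 and 1.47 to 2.76 for the others. With them 207 genes (1.32%) fell and 113 (0.719%) rose. Without mutant 1, 5 genes (0.0318%) fell and 2 (0.0127%) rose.

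Hemidesmosomes anchor basal cells to the basement membrane. Of 11 hemidesmosome and basement membrane genes, all tested, 0 passed with all 6 libraries. With array weights 1 fell and 0 rose. The one that fell was Col17a1, the transmembrane collagen of the hemidesmosome, at 7.89, 10.8 and 7.87 FPKM in mutants and 14.5, 15.2 and 16.6 FPKM in controls (limma adjusted p = 0.0411 weighted, and 0.695 with equal weights). Itgb4, the integrin chain of the same structure, was 26.0, 4.57 and 3.63 FPKM in mutants and 4.03, 4.82 and 4.58 FPKM in controls, with mutant 1 far above the other 5 libraries. The median log2 change of the list was -0.061, and -0.043 without mutant 1, beside -0.046 over all genes.

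Desmosomes join keratin filaments of neighbouring cells. Of 12 desmosome genes 0 passed with all 6 libraries, and with array weights 3 fell and 0 rose. The median log2 change over the list was -0.33 at equal weights and -0.27 without mutant 1. Dsg3 and Pkp2 had mutant means under 1 FPKM (0.616 and 0.918) and reached the filter through the controls (2.18 and 1.48). The median thus rests in part on genes let in by the group where they were higher. Pkp1, a plakophilin of stratified epithelia, was 3.73, 4.05 and 3.68 FPKM in mutants and 9.03, 7.47 and 8.25 FPKM in controls (limma adjusted p = 0.0211 weighted, and 0.695 with equal weights). Perp, a desmosome protein and known Trp63 target, was 24.5, 16.5 and 19.5 FPKM in mutants and 26.1, 26.3 and 25.8 FPKM in controls (limma adjusted p = 0.0433 weighted, and 0.695 with equal weights). The third was Dsp, desmoplakin, at 25.0, 7.96 and 7.44 FPKM in mutants and 12.4, 12.4 and 11.1 FPKM in controls (limma adjusted p = 0.0491 weighted, and 0.957 with equal weights). Dsp was named after its values were seen, and in mutant 1 it was above all controls. Jup, plakoglobin, lay higher in every mutant, for mutant 3 only just, at 65.3, 42.8 and 39.4 FPKM against 39.3, 38.9 and 39.0 FPKM in controls, and did not pass.

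Genes of suprabasal and cornified layers were mostly near the floor of the table: 7 of 16 reached the filter. Krt1, the first keratin of cells that leave the basal layer of skin, was at most 0.3955 FPKM in mutants and 1.09 FPKM in controls, and the barrier gene Flg was listed at 0 throughout. Of the 7 tested, 0 passed with all 6 libraries, and with array weights 2 fell and 0 rose. Sprr1a and Lypd3 had mutant means under 1 FPKM (0.956 and 0.699) and reached the filter through the controls (3.62 and 2.32), so the 7 are not a fair sample of the 16. Dmkn, a secreted protein of upper layers, was 10.7, 3.96 and 5.555 FPKM in mutants and 19.5, 12.6 and 18.5 FPKM in controls (limma adjusted p = 0.0223 weighted, and 0.695 with equal weights). Sprr1a, a precursor of the cornified envelope, was 0, 1.82 and 1.05 FPKM in mutants and 3.87, 3.24 and 3.75 FPKM in controls (limma adjusted p = 0.0418 weighted, and 0.695 with equal weights).

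Of 14 transcription factors of stratified epithelia 10 were tested, and 0 passed with all 6 libraries or with array weights. Tfap2c, 1 of the 10, reached the filter through the controls, at means of 0.871 FPKM in mutants and 2.09 FPKM in controls. Sox2, a factor of oral and airway epithelia among others, was 7.39, 8.93 and 6.94 FPKM in mutants and 11.15, 10.8 and 9.68 FPKM in controls. Ehf, an ETS factor of epithelia, was 4.77, 14.6 and 13.6 FPKM in mutants and 21.4, 15.9 and 16.7 FPKM in controls. The genes of simple epithelia and of epithelia in general had 3 of 15 lower with array weights, all of them keratins (Krt19, Krt8 and Krt18), and 0 higher. Krt19, a type I keratin of simple epithelia, was 48.2, 49.3 and 47.5 FPKM in mutants and 98.4, 93.1 and 99.02 FPKM in controls (limma adjusted p = 0.00192 weighted, and 0.229 with equal weights). Krt18, the type I partner of Krt8, was 48.65, 36.6 and 32.3 FPKM in mutants and 57.0, 52.8 and 53.03 FPKM in controls (limma adjusted p = 0.0201 weighted, and 0.695 with equal weights). The same 3 were the ones called among 8 tested keratins outside the set. Of these 8, Krt23 reached the filter through the controls, at means of 0.558 FPKM in mutants and 1.83 FPKM in controls. For each of the 9 genes called here with array weights, the weighted p was the lowest of its alternatives, and the highest limma adjusted p was 0.872, or 0.989 for Dsp. Without mutant 1, Krt19 passed and the other 8 did not.

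**Figure D4:**
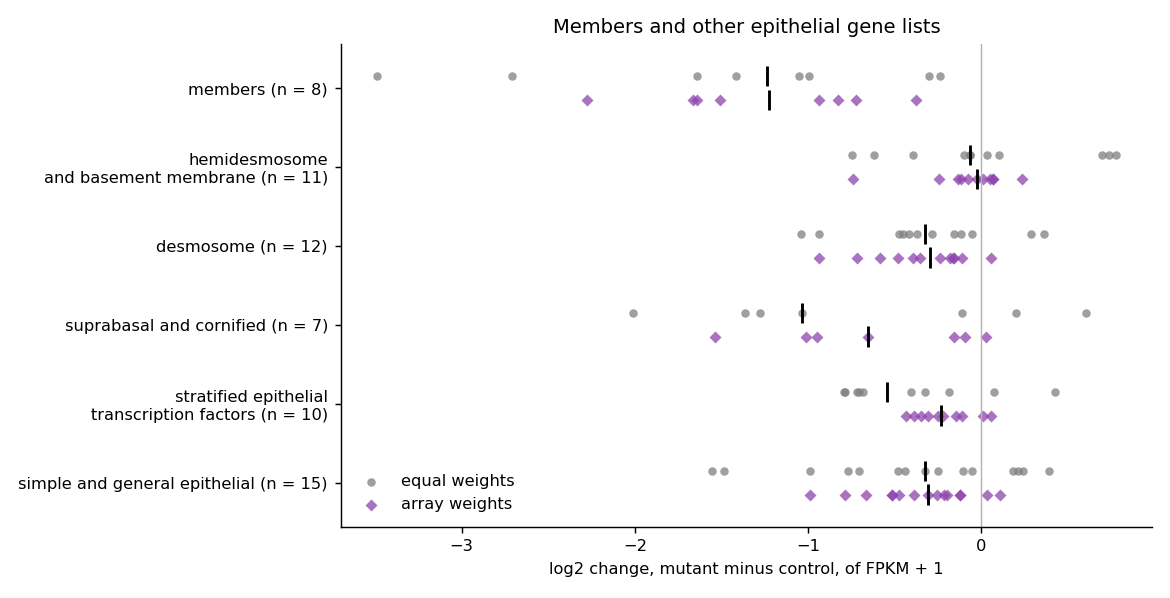
Log2 change, mutant minus control, of FPKM + 1 (horizontal axis) for the 8 members and the tested genes of 5 other epithelial lists, with equal weights (grey circles) and with array weights (purple diamonds). Black ticks are medians of the genes that passed the filter, for example -1.23 for the members and -0.061 for the hemidesmosome list at equal weights. Some genes of the desmosome, suprabasal and transcription factor lists passed it only through the controls.

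Over all 15710 genes tested mutant 1 was listed at 0 in 21.9%, and it was more than 2 times the highest of the other 5 libraries in 13.5%. It was listed at 0 in 1 of 11 hemidesmosome, 2 of 12 desmosome, 3 of 7 suprabasal and 3 of 10 transcription factor genes tested. In 3, 2, 2 and 1 genes of the same lists it was more than 2 times the highest of the others. With so few genes a list, these shares are not set apart from those over all genes. How far the state of this library bears on its Krt14 value was not tested.

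The tissue label was checked against defining genes. Of 7 cartilage markers all were above 1 FPKM, led by Col2a1, with sums of 4010 to 4570 FPKM in mutants and 2750 to 3600 FPKM in controls. In 6 of the 7 every mutant lay above every control, as in 8.98% of all genes tested. Ciliated cells lie beside basal cells in the lining of nose and throat. In 6 of their 7 markers every mutant lay below every control, as in 11.9% of all genes tested. The sums were 225 to 266 FPKM in mutants and 298 to 414 FPKM in controls. Of the 6, Dnah5 did not reach the filter. Sntn reached it through the controls, at means of 0.076 FPKM in mutants and 1.98 FPKM in controls. The count and the share are thus over unlike sets of genes. Tppp3, the highest of these markers in controls, was 140.7, 145.2 and 137.7 FPKM in mutants and 230.4, 185.0 and 263.7 FPKM in controls. The exception was Foxj1, the transcription factor that defines these cells, at 75.7, 53.8 and 49.8 FPKM in mutants and 64.1, 50.4 and 66.7 FPKM in controls, with overlapping groups. Airway secretory markers summed to 70.1 to 86.8 FPKM in mutants and 86.1 to 104 FPKM in controls, with Wfdc2 the highest and Scgb1a1 at 0 in all libraries. The part of ciliated cells and of cartilage in the keratin values was not tested.

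Of the enamel organ of teeth, a source of Krt5, Krt14 and Krt17, 5 markers were near the floor. Their sums were 0 to 1.81 FPKM in mutants and 0.61 to 1.20 FPKM in controls. All 5 are genes of enamel formation, a step later than E15.5. Their low sums thus do not show whether tooth epithelium was present. Notochord markers summed to 13.4 to 16.5 FPKM in mutants and 13.8 to 15.9 FPKM in controls, with Noto at 0 in all libraries. Foxa1 alone was 8.04 to 11.2 FPKM in mutants and 8.63 to 10.6 FPKM in controls, so the sums mostly follow this gene. T was 0 to 1.65 FPKM in mutants and 0.903 to 1.99 FPKM in controls. Markers of melanocytes and skin mesenchyme summed to 82.3 to 139 FPKM in mutants and 108 to 127 FPKM in controls, led by Crabp1. Pituitary markers split both groups, at 3.70, 117 and 13.6 FPKM in mutants 1, 2 and 3 and 11.9, 93.9 and 11.3 FPKM in controls 1, 2 and 3. Mutant 2 and control 2, where these were high, had the lowest Krt5 of their groups, at 27.0 and 83.8 FPKM. No other member was lowest in both. In mutant 2 Krt6a (8.18 FPKM) and Trp63 (3.43 FPKM) were the highest of the mutants. Any link between the pituitary markers and the members was not tested.

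Genes with a profile most like that of the 8 were sought among 8185 tested genes with at least 10 FPKM in controls. Likeness was the root-mean-square difference over the 6 libraries between a gene's log2(FPKM + 1), less its control mean, and the median of the 8 genes. The nearest were Lrrc46 (0.143), Upk3a (0.144), Krt19 (0.179), Cebpa (0.206), Dnali1 (0.219), Aldh1a1 (0.249), 1700003E16Rik (0.265) and Ubxn10 (0.268). Upk3a, a uroplakin of the bladder lining, was 9.21, 10.03 and 12.4 FPKM in mutants and 24.2, 21.3 and 23.9 FPKM in controls. Dnali1, a light intermediate chain of axonemal dynein in cilia, was 4.31, 6.44 and 6.06 FPKM in mutants and 17.7, 10.7 and 16.8 FPKM in controls. Aldh1a1, an enzyme that makes retinoic acid, was 4.50, 5.91 and 6.98 FPKM in mutants and 19.9, 15.9 and 19.5 FPKM in controls. Cebpa, a factor of fat, liver and myeloid cells that skin also makes, was 3.42, 6.23 and 5.18 FPKM in mutants and 9.93, 11.8 and 12.3 FPKM in controls. These genes were picked by their values, so that they were lower in every mutant is no result of its own.

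**Figure D5:**
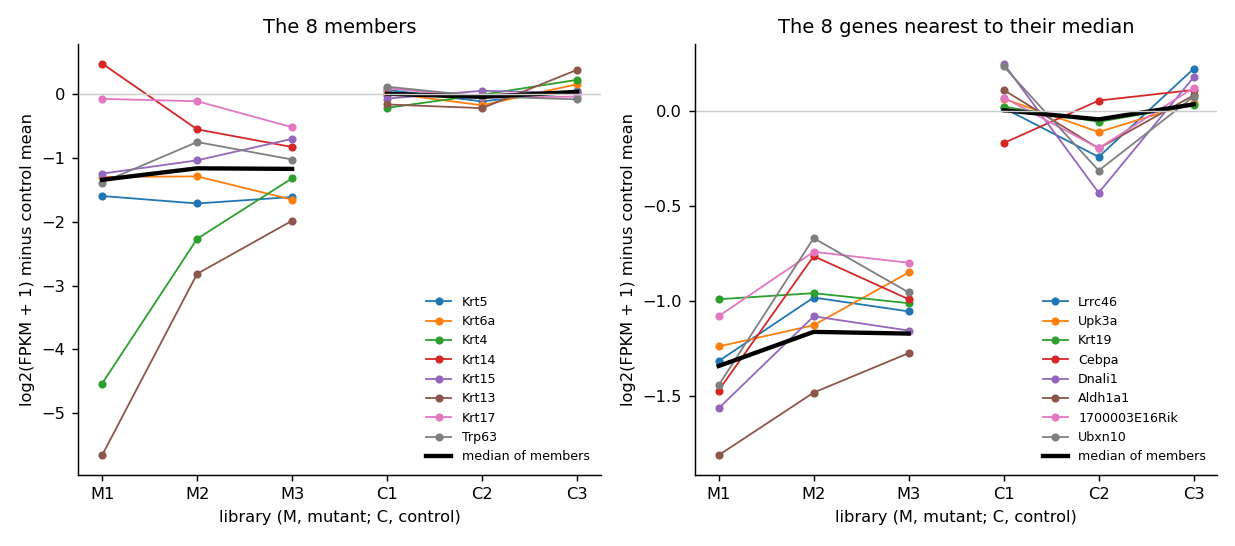
Log2(FPKM + 1) minus the control mean of each gene (vertical axes, which differ in range) in mutants (M1 to M3) and controls (C1 to C3), for the 8 members (left) and the 8 genes nearest to their median (right). The black line is the median of the members, at -1.34, -1.16 and -1.17 in mutants 1, 2 and 3, and Krt14 in mutant 1 is the only member point above 0 among the mutants.

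Among the mutants the 8 genes did not share 1 order of libraries. Mutant 1 was the lowest of the 3 for Krt15, Krt13, Krt4 and Trp63 and the highest for Krt14, Krt17 and Krt5. Within the title word M3150 the log2 differences were -1.66 for Krt5, -1.32 for Krt6a, -1.18 for Krt15, -1.50 for Trp63, -0.17 for Krt17 and 0.49 for Krt14, and Krt4 and Krt13 were at 0 in its mutant. Within M3159 they were -1.58 for Krt5, -1.64 for Krt6a, -1.43 for Krt4, -0.74 for Krt15, -2.07 for Krt13, -0.97 for Trp63, -0.47 for Krt17 and -0.83 for Krt14. Krt5 moved least between these, and Krt14 changed its sign. In the authors' deposited table the control mean was 8.45 times the mutant mean for Krt13 and 5.54 times for Krt4, and both of those means count the 0 of mutant 1.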

How the data were processed

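RNA was isolated from E15.5 cranial bases and sequenced from Illumina libraries, as the labels' protocols state. The authors deposited 1 table with FPKM values per library, and the submitters' processing notes name Cufflinks and the build mm9. The unit was inferred from that tool and the values. The sources used here name no aligner, annotation release or filter. The deposited fold is a signed score, and the p-value and q-value beside it come from a comparison that is not described. Of these only the fold is printed.

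The code 999999999 was taken as missing, and 15 entries with it were left out. limma 3.58.1 in R 4.3.3 was fitted on log2(FPKM + 1) for 15710 entries with a mean of at least 1 FPKM, with genotype as the only term (lmFit, eBayes with trend and robust), two-sided, and p-values were adjusted by Benjamini-Hochberg with 0.05 as the threshold. Depth was read from steps between low values, where at least 100 genes shared a step. The fit was tested on simulated data. Alternatives were array weights, a pseudocount of 0.1, no filter or one of 5 FPKM, upper-quartile scaling, the title word as random effect or as a block, and leaving out each library. Tables were made with pandas 2.3.3 in Python 3.11.15.

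The members and lists were chosen with earlier results of these data known. Named were the 8 members, Memo1, up to 3 genes per list with the smallest p and no control at 0 (of which some are printed), the 8 genes nearest in profile, and the highest marker of a list. Other named genes (Dsp, Itgb4, Jup, Krt1, Flg, Krt6b, Krt16, Cdh1, Epcam, Scgb1a1, Noto and Foxj1) were chosen after their values were seen. So were Pkp2, Krt23, T, Sntn and Dnah5. Promoters are from RefSeq (GRCm38.p6), and transcript words of 50 bases from GENCODE vM21. Replicates are separate embryos by their labels.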

Additional observations from a re-analysis of the deposited data

Results flagged for a closer look

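Krt14 was the 1 member whose mutant and control values went opposite ways in the title words that hold both genotypes. Within M3150 the log2 difference, mutant minus control, was 0.489, from 1 mutant and 1 control. Within M3159 it was -0.834, from 1 mutant and 2 controls. The difference between the words was not tested. Groups of 3 libraries are too small for a check of single outlying values.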

How the results depend on the processing

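The number of genes called was 0 of 15710 at equal weights, with 805 at an unadjusted p under 0.05, and 320 with array weights. Leaving out 1 library gave 0 to 7, the 7 without mutant 1. With array weights 1 hemidesmosome, 3 desmosome, 2 suprabasal and 3 simple or general epithelial genes were called, and 3 of the other keratins, against 0 each at equal weights. Leaving out 1 library gave 0 to 1 in these last 2 lists, the 1 without mutant 1, and 0 in the other 4 lists. The median log2 change of the members was -1.23. It was -1.41 with a pseudocount of 0.1, -1.31 with upper-quartile scaling and -1.41 within M3150. The M3150 median counts Krt4 and Krt13, which are listed at 0 in its mutant. With 1 library left out the members' median was -1.34 to -1.18. The type I sum had a log2 ratio of -0.859, and -0.95 with upper-quartile scaling. Krt14 reversed to 0.489 within M3150. Memo1 was 0.0735, and reversed to -0.0204 with upper-quartile scaling, with -0.0113 to 0.15 as the range with 1 library left out, below 0 without mutant 1 and without control 1 (-0.000246). The cause of these shifts was not tested. Replicate numbers follow accession order and pair no libraries. With the title word as random effect, or as a fixed block (chosen after seeing the data), 0 genes were called, in all and in each list, and with the block the members' median was -1.35. With 3 libraries a group and no counts in the table, small differences such as that of Krt17 are not resolved.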
